A study of Mus musculus with 6 samples.

Results

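STRAP peaks in 3' UTRs were the 717 peaks, of 5969 deposited for 4 STRAP eCLIP libraries and 10748 deposited for all 6 libraries, whose summit lay in a 3' UTR and in no 5' UTR of a protein-coding transcript in the Gencode M21 basic annotation of mm10. The same rule took 72 of the 4779 peaks of the 2 input libraries. STRAP eCLIP was performed on wild type C57BL/6 mouse embryos at prenatal day 9.5 (2 libraries, embryo eCLIP-1 and eCLIP-2) and on 9-day-old embryoid bodies (EBs) derived from ESCs of the same genotype and strain (EB eCLIP-1 and eCLIP-2), and each tissue had 1 size-matched input library made from lysate without immunoprecipitation. The prenatal day is that of the sample labels, and a figure legend of the paper gives a slightly earlier stage for the eCLIP embryos. Embryos were pooled, EBs are cultured aggregates of differentiating stem cells kept without LIF and then with bFGF, and no library without STRAP was among those analysed, so antibody specificity is not measured by these lists. In eCLIP, RNA is crosslinked to protein by UV, the protein is immunoprecipitated and the attached RNA fragments are sequenced, and a peak marks a stretch where fragments pile up above the level of its surroundings.

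The 3' UTR is the part of an mRNA that follows the coding sequence. It carries the polyadenylation signal and binding sites for miRNAs and RNA-binding proteins that govern stability, localization and translation, and in spliced mRNAs it usually lies in the last exon. STRAP is a WD40-repeat protein known as a partner of the SMN complex, which assembles spliceosomal snRNPs.

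Each peak carries a tag count (sequenced fragments, at most 1 per position), a fold enrichment over the same library's own background and a score that grows with the negative log10 of its p-value. The eCLIP libraries were shallow, with 136935 and 185125 tags in embryos and 165566 and 228422 tags in EBs, whereas the embryo input held 6289516 and the EB input 6825190 tags. The peak caller assumed a fragment of 76 nt in EB eCLIP-2 and of 200 nt in the other 5 libraries, so peaks of EB eCLIP-2 were narrower. Lists of 4 eCLIP values run over embryo replicates 1 and 2 and EB replicates 1 and 2. Median tags of a 3' UTR peak were 5 and 7 in the embryo pair and 6 and 4 in the EB pair, and 394 of the 717 peaks (54.95%) rested on 5 tags or fewer. In the inputs the medians were 12.5 tags in embryos and 13 tags in EBs, and no input peak had fewer than 10 tags. Peaks carried no strand, and the gene named is the one whose 3' UTR held the summit. Only 10 of the 717 summits lay in 3' UTRs on both strands (2, 2, 1 and 5 by library), and 45 lay in a coding exon of another transcript as well.

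The RNA under the summits is shown for 5 of the 6 regions that all 4 eCLIP libraries held and neither input did, and for 3 stem cell regulators held by both EB libraries only. Each line gives 30 bases of GRCm38 on the gene's strand, 5' to 3', with the summit base of the library richest in tags for its size in capitals.
Pabpc1 (chr15:36595876-36595905, minus): aaaacaacaaaaaaAtacaaaaaaatagta
Ybx1 (chr4:119278321-119278350, minus): aagaaatgaatatgAaattccagcaataag
Ptms (chr6:124914012-124914041, minus): tctcatttccatctCtccagacactgctcc
Gnai2 (chr9:107614480-107614509, minus): agcacccccaccccAgcccagccccagccc
Mdk (chr2:91930035-91930064, minus): ctcgcctggagcctGaacggagccctcctc
Nanog (chr6:122714435-122714464, plus): catctcgataaaatAataaaactaaagtct
Tdgf1 (chr9:110939963-110939992, minus): attgtttgattgatGtttacggaggtactg
Sox2 (chr3:34652267-34652296, plus): aaggtttttcccccCttttattttccgtag
Their G+C content differed widely, between 13.3% for Pabpc1 and 80% for Gnai2. Of the 8 stretches, only that of Nanog held AATAAA, the sequence of the polyadenylation signal, and this copy covers its summit. The summit lay 897 nt into the 1081 nt 3' UTR, and whether this copy acts as a signal was not tested.

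The first question was how much of the STRAP signal fell in 3' UTRs compared with input RNA. In embryo eCLIP-1, 126 of 1449 peaks had a 3' UTR summit (8.70%, exact binomial 95% interval 7.30 to 10.3%), and in embryo eCLIP-2 136 of 1309 did (10.4%, 8.79 to 12.2%). EB eCLIP-1 had 151 of 1256 (12.02%, 10.3 to 13.95%) and EB eCLIP-2 304 of 1955 (15.5%, 13.97 to 17.2%). The embryo input had 32 of 2780 (1.15%, 0.789 to 1.62%), and 40 of 1999 peaks of the EB input were in this class (2.001%, 1.43 to 2.71%). All 4 eCLIP libraries were thus above both inputs, and the plot of shares by library shows no overlap of the intervals.

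**Figure D1:**
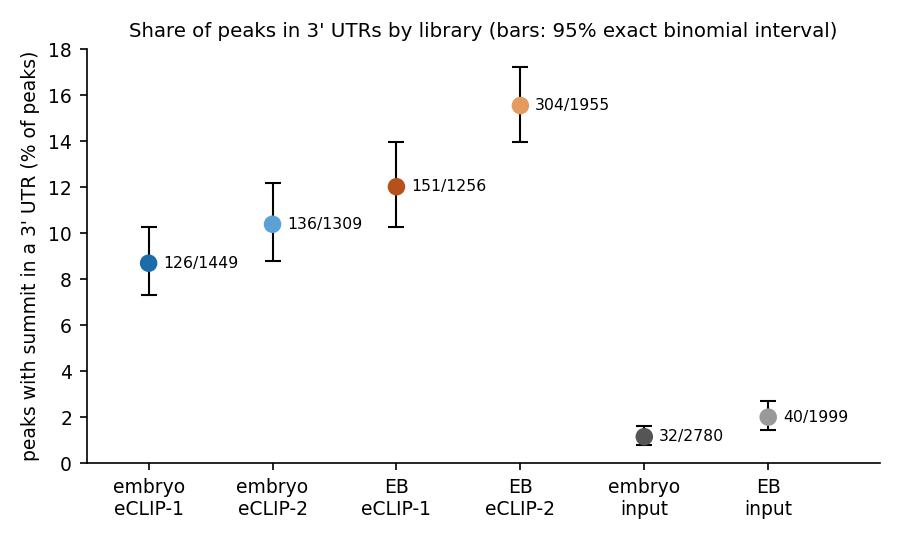
Share of each library's peaks with a summit in a 3' UTR (points, % of peaks) with its 95% exact binomial interval (bars); the number of 3' UTR peaks over all peaks is printed beside each point. The 4 eCLIP libraries sit between 8.70% and 15.5%, above the embryo input at 1.15% and the EB input at 2.001%.

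The mean share was 9.54% ± 1.20 in embryo eCLIP and 13.8% ± 2.49 in EB eCLIP (SD, n = 2 each). Over the 4 eCLIP libraries it was 11.7% ± 2.92 (SD, n = 4), against 1.58% ± 0.601 in the inputs (SD, n = 2), a difference of 10.1 percentage points. When only peaks scoring 100 or more were taken, the difference was 3.30 points. An exact two-sided permutation test over libraries gave p = 0.0667, which is the smallest value that 4 against 2 libraries allow. Fisher's exact test, which compares the peak lists of single libraries rather than conditions, gave odds ratios over the tissue's input of 8.18 and 9.96 for the embryo pair and 6.69 and 9.02 for the EB pair, with adjusted exact p-values between 2.07e-56 and 6.78e-32. Because an input peak needed at least 10 tags, the shares were also taken over peaks of at least 10 tags, a choice made after seeing the data. They were 9.65% (36 of 373) and 10.6% (46 of 433) in embryo eCLIP, and 11.7% (42 of 360) and 11.05% (38 of 344) in EB eCLIP, with the inputs unaltered. At this tag count EB eCLIP-2 was not the highest. The inputs held 29.9 to 45.9 tags for each eCLIP tag, so immunoprecipitation and depth differ together between eCLIP and input and cannot be told apart.

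Summits were most frequent next to the coding sequence, in eCLIP and input alike. With the 3' UTR cut into 5 equal bins, between 33.6% and 38.9% of eCLIP summits were in the first bin, against 31.2% and 32.5% in the embryo and EB inputs, whereas in eCLIP the bin next to the transcript end held 5.88 to 11.2%. The median relative position, from 0 at the coding end to 1 at the transcript end, was 0.31 and 0.26 in embryo eCLIP and 0.33 and 0.35 in EB eCLIP, against 0.33 for the input of embryos and 0.50 for that of EBs. In nucleotides, the median summit was 308, 246, 392 and 312 nt past the coding end in the 4 eCLIP libraries, in 3' UTRs with a median length of 1273 to 1558 nt. The input summits lay at a median of 420 nt in embryos and 624 nt in EBs.

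**Figure D2:**
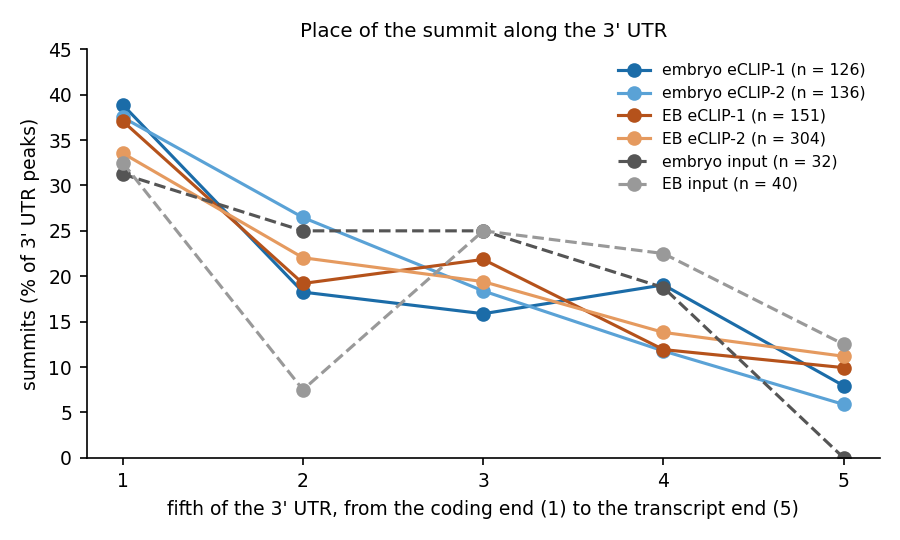
Share of each library's 3' UTR summits (y axis, %) in each of 5 equal bins of the 3' UTR, from the coding end to the transcript end (x axis); solid lines are eCLIP and dashed lines input libraries. The first bin holds the most summits in every library, between 33.6% and 38.9% in eCLIP and 31.2% and 32.5% in the inputs.

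The difference between eCLIP and input positions was -0.10 of the 3' UTR length, with an exact permutation p of 0.133, and the ranges of the library medians overlapped. Peaks wide enough to reach the stop codon were common. They numbered 53 (42.1%) and 72 (52.9%) in embryo eCLIP and 71 (47.02%) and 76 (25%) in EB eCLIP, against 14 in each input (43.8% for embryos and 35% for EBs). The annotated transcript end was covered by 4.64 to 7.14% of eCLIP peaks, against 12.5% and 25% (4 of 32 and 10 of 40) in the embryo and EB inputs. In the 48 regions shared by both EB libraries with 1 peak each, the summit of EB eCLIP-2 lay a median of 47 nt nearer the 3' end than that of EB eCLIP-1 (31 of 48 regions). Against embryo eCLIP-1 the median was 80.5 nt (23 of 26 regions), and against embryo eCLIP-2 it was 59 nt (28 of 36). Positions are therefore not resolved more finely than these offsets. Genes with a 3' UTR peak had long 3' UTRs, with a median of 1479 nt for their longest annotated form (540 genes), against 913 nt over all 21655 protein-coding genes with a 3' UTR. The rule itself favours long 3' UTRs, which offer more room for a summit, and the 21655 genes include those without any eCLIP peak. This difference was not tested.

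Compared with all other peaks of the same library, 3' UTR peaks were wider and of lower fold enrichment. Their median length was 474 against 306 nt and 540 against 344 nt in embryos, and 512 against 344 nt and 183 against 153 nt in EBs. Median fold enrichment was 25, 20, 22.2 and 39.5 for 3' UTR peaks, against 30, 28.6, 30 and 52.6 for the others. The fold was lower by 0.41 ± 0.10 on the log2 scale (SD, n = 4), the score differed by -0.22 ± 0.03 and the length by 0.53 ± 0.18, each in the same direction in 4 of 4 libraries. For each of these the exact sign-flip p was 0.125, the smallest that 4 libraries allow. The median tag count was the same for 3' UTR peaks and other peaks in 3 libraries, and 6 against 5 tags in EB eCLIP-1 (mean log2 difference 0.07, exact p = 1).

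Peaks in 3' UTRs recurred between replicates less often than other peaks of the same library. A peak of the other replicate, overlapping by at least 1 bp, was found for 35 of 126 3' UTR peaks in embryo eCLIP-1 (27.8%), against 44.0% of its other peaks. For embryo eCLIP-2 it was 37 of 136 (27.2%) against 49.5%. The EB libraries had 59 of 151 (39.1%) against 53.6%, and 89 of 304 (29.3%) against 38.2%. Over all peaks of a library these shares were 42.6%, 47.2%, 51.8% and 36.8%. Fisher's exact test gave adjusted p = 0.000898, 2.86e-06, 0.00125 and 0.00353. Coding exon peaks recurred at 30.9%, 38.7%, 39.9% and 23.4%, above the 3' UTR peaks in every library but EB eCLIP-2, which was not tested. Intergenic peaks recurred at 58.9 to 80.4%. Among peaks of at least 10 tags the 3' UTR share was 63.9%, 60.9%, 81.0% and 84.2% of 36, 46, 42 and 38 peaks, and the difference from other peaks then passed in the embryo libraries (adjusted exact p = 0.00327 and 0.000419) but not in the EB libraries (0.166 and 0.261). Coding exon peaks of that size recurred at 70.7%, 72.1%, 73.1% and 73.7%. The 3' UTR peaks were thus below them in embryos and above them in EBs, which was not tested.

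**Figure D3:**
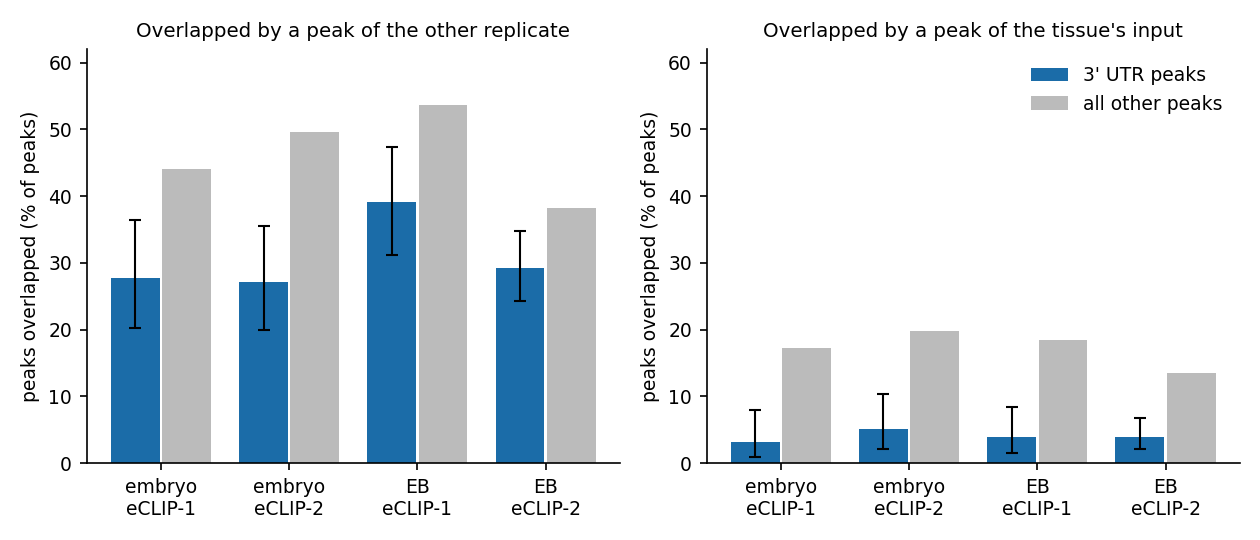
Share of peaks (y axis, %) in each eCLIP library that a peak of the other replicate (left panel) or of the tissue's input (right panel) overlapped, for 3' UTR peaks (blue, with 95% exact binomial intervals) and all other peaks (grey). The blue bar is the lower one in all 8 pairs, between 27.2% and 39.1% on the left and between 3.17% and 5.15% on the right.

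Input peaks covered 3' UTR peaks less often than other eCLIP peaks. An input peak of the tissue overlapped 4 of 126 (3.17%) and 7 of 136 (5.15%) 3' UTR peaks of the embryo pair, and 6 of 151 (3.97%) and 12 of 304 (3.95%) of the EB pair. The other peaks of these libraries were overlapped at 17.2%, 19.9%, 18.5% and 13.6%, and all peaks together at 16%, 18.3%, 16.7% and 12.1%. Each difference passed Fisher's exact test (adjusted p between 1.00e-06 and 3.65e-06). Coding exon peaks, at 1.81 to 4.16%, were near the 3' UTR peaks, while intergenic peaks were overlapped at 40.7 to 54%. Among peaks of at least 10 tags, input peaks overlapped 5.56% and 8.70% of 3' UTR peaks in embryo eCLIP and 14.3% and 18.4% in EB eCLIP, against 47.2%, 47.8%, 42.8% and 47.1% of the other peaks. The mean difference was then -34.5 percentage points, against -13.2 points over peaks of any tag count, and it passed in each library (largest adjusted exact p = 0.000811). Coding exon peaks of at least 10 tags were overlapped at 6.03% and 9.02% in embryo eCLIP and 10.8% and 7.89% in EB eCLIP. The 3' UTR peaks were thus near them in embryos and above them in EBs, which was not tested. Intergenic peaks of that size were overlapped at 83 to 89.6%.

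Merging overlapping 3' UTR peaks gave 561 regions in the 3' UTRs of 539 genes. Of these, 454 were held by 1 eCLIP library, 75 by 2, 22 by 3 and 10 by all 4, so that 107 regions (19.1%) recurred. An input peak lay on 25 regions and on 14 of the 107 recurrent ones. No gene had more than 2 regions, and 22 genes had 2. A peak of either EB library, of any class, lay on 63 of the 229 regions of the embryo libraries (27.5%), and a peak of either embryo library on 83 of the 393 regions of the EB libraries (21.1%). The overlap between tissues was not taken over all peaks. Whether these shares, or the counts of regions held in 1 tissue below, are particular to 3' UTRs is therefore not known. The plot of tags over named regions shows the counts described next.

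**Figure D4:**
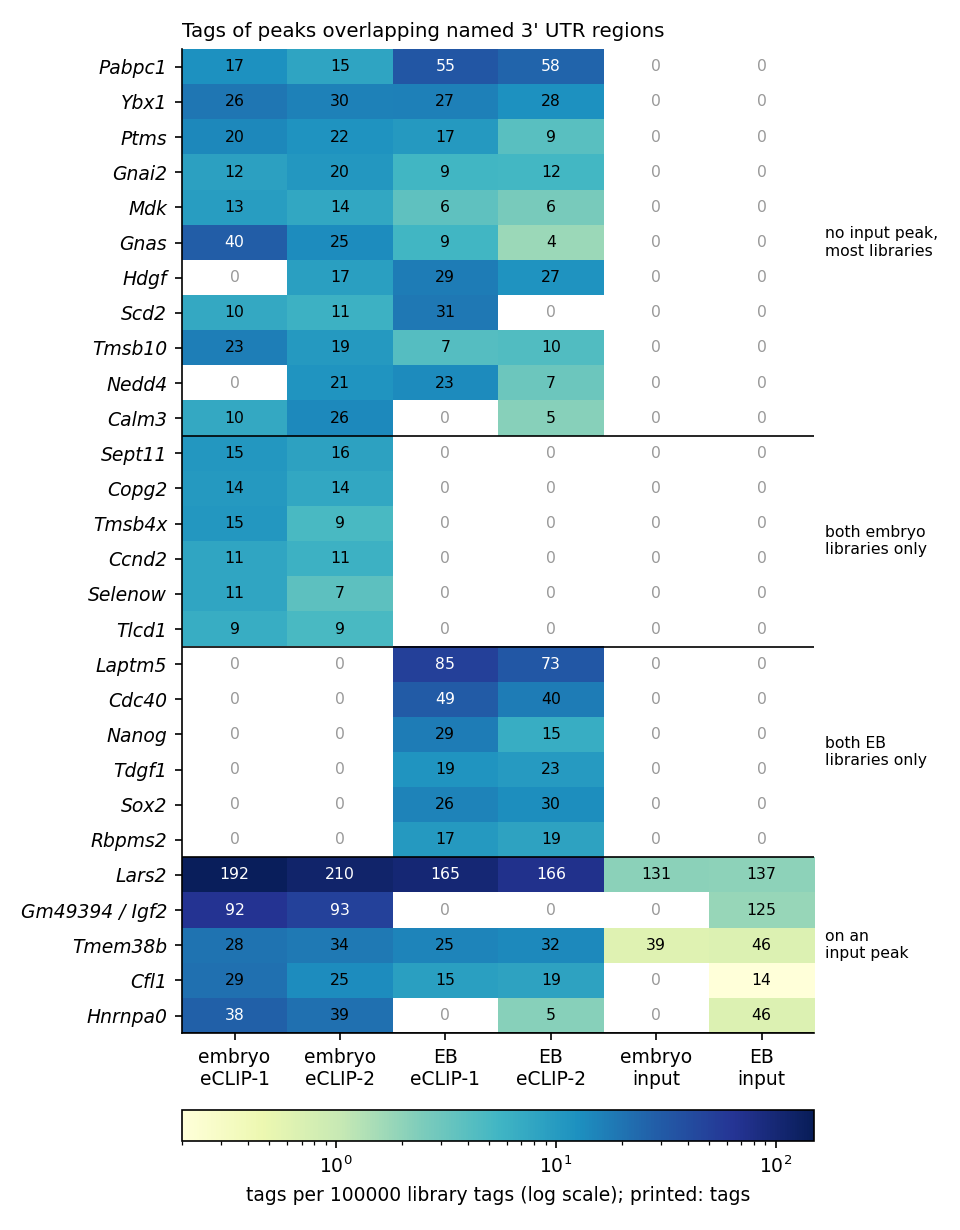
Tags of the peaks that overlap each named 3' UTR region (rows) in each library (columns), printed in the cell and coloured by tags per 100000 library tags on a log scale; 0 means no peak. Lars2 has the most tags in all 6 libraries (131 to 210), and the blocks in the middle hold the regions of 1 tissue.

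Among the 6 regions of all 4 libraries without an input peak were mRNAs of mRNA-binding proteins. Pabpc1, which encodes the major cytoplasmic poly(A)-binding protein, had 17 and 15 tags in embryo eCLIP and 55 and 58 tags in EB eCLIP at chr15:36595660-36596281, so the EB counts were above both embryo counts. The summit lay 212 nt into its 442 nt 3' UTR. Ybx1 encodes a cold-shock domain protein that packages mRNA, and its summit lay 66 nt past the coding end. It had 26 and 30 tags in embryos and 27 and 28 tags in EBs, nearly the same raw count in every library. Per 100000 library tags, Ybx1 had 19.0 and 16.2 in embryos and 16.3 and 12.3 in EBs.

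Ptms encodes parathymosin, a small acidic nuclear protein, and had 20 and 22 tags in embryos and 17 and 9 in EBs. Gnai2, an inhibitory G protein alpha subunit, had 12 and 20 tags in embryos and 9 and 12 in EBs, so the raw ranges met. Per 100000 library tags, Gnai2 had 8.76 and 10.8 in embryos and 5.44 and 5.25 in EBs, so the scaled ranges were apart. For Mdk, the heparin-binding growth factor midkine, there were 13 and 14 tags in embryos and 6 in each EB library, 43 nt past the coding end. With 2 libraries per tissue and 1 tag per position, these counts carry no test between tissues.

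Another 16 regions without an input peak were held by 3 libraries, and the 6 with the most tags for the size of their libraries are described. Gnas, the stimulatory G protein alpha subunit, had 40 and 25 tags in embryos and 9 and 4 in EBs, the last from a peak whose summit lay outside the 3' UTR. Tmsb10, an actin monomer-binding thymosin, had 23 and 19 tags in embryos and 7 and 10 in EBs, and an antisense lincRNA, Gm26640, is annotated at the same place. Hdgf, a growth factor, had no peak in embryo eCLIP-1, 17 tags in embryo eCLIP-2 and 29 and 27 tags in EBs. These 3 mRNAs thus differed in which tissue held more tags.

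Nedd4, which encodes a ubiquitin ligase, carried 2 regions. The first had 0 and 21 tags in embryos and 23 and 7 in EBs. Over the second there were 9 and 0 tags in embryos and 0 and 6 in EBs. Each library therefore had a Nedd4 3' UTR peak. Both EB libraries held the first region, whereas the embryo libraries held different ones. Scd2, a fatty acid desaturase, had 10 and 11 tags in embryos and 31 and 0 in EBs, over an annotated miRNA gene (Mir5114), and Calm3 had 10 and 26 tags in embryos and 0 and 5 in EBs.

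In embryos only, 11 regions were held by both libraries and by neither EB library, 9 of them without an input peak. Sept11, a septin, led these with 15 and 16 tags. It was followed by the Copg2 region with 14 tags in each library, Tmsb4x with 15 and 9, Ccnd2 (cyclin D2) with 11 and 11, Selenow (a selenoprotein) with 11 and 7 and Tlcd1 with 9 and 9 tags. The Copg2 region also lies in a 3' UTR of Mest, an imprinted gene on the opposite strand, and the Tlcd1 region overlaps Rpl23a and the snoRNA gene Snord42a on the opposite strand. Without strand, the source RNA of those 2 regions cannot be told apart.

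In EBs only, both libraries held 35 regions that neither embryo library held, none with an input peak. The most tags fell on Laptm5, a lysosomal membrane protein gene known from blood cells, with 85 and 73 tags at chr4:130934337-130936134, and on Cdc40, a splicing factor gene, with 49 and 40. Next came Nanog with 29 and 15 tags, Tdgf1 with 19 and 23, Sox2 with 26 and 30, and Rbpms2, an RNA-binding protein gene, with 17 and 19. Of the 30 Sox2 tags in EB eCLIP-2, 9 belonged to the peak with a 3' UTR summit, and the noncoding Sox2ot spans the gene on the same strand. Nanog and Sox2 are transcription factors of pluripotent cells and Tdgf1 is a Nodal co-receptor. RNA abundance in the tissues was not measured by these lists, so binding and expression cannot be told apart for the regions of 1 tissue.

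Some regions rich in eCLIP tags lay on input peaks. Lars2, a mitochondrial leucyl-tRNA synthetase gene, had 192 and 210 tags in embryo eCLIP and 165 and 166 in EB eCLIP, against inputs with 131 tags for embryos and 137 for EBs. The 200-nt window around its summit held no soft-masked repeat. Tmem38b had 28 and 34 tags in embryo eCLIP and 25 and 32 in EB eCLIP, against 39 and 46 in the embryo and EB inputs, over a 5S rRNA gene copy (n-R5s185) annotated on the same strand. Both had a peak in all 6 libraries. Cfl1, encoding the actin-severing protein cofilin, had 29 and 25 tags in embryos and 15 and 19 in EBs, against no peak in the embryo input and 14 tags in the EB input.

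Igf2, the imprinted fetal growth factor, shares its 3' UTR with an overlapping transcript annotated as Gm49394. This region had 92 and 93 tags in embryo eCLIP and no peak in EB eCLIP, against no peak in the embryo input and 125 tags in the EB input. Nnat, encoding the neuronal proteolipid neuronatin, showed the same pattern with 27 and 25 tags in embryo eCLIP, 0 in EB eCLIP, no embryo input peak and 44 tags in the EB input. At the rate of the EB input peaks, EB eCLIP-1 and eCLIP-2 would hold 3.03 and 4.18 tags over Igf2 and 1.07 and 1.47 tags over Nnat. The same rate gives 3.32 and 4.59 tags over Lars2, where 165 and 166 were found, so it is no forecast of eCLIP tags. Why Igf2 and Nnat had no EB eCLIP peak was not tested. Hnrnpa0 had 38 and 39 tags in embryo eCLIP and 0 and 5 in EB eCLIP, against 0 and 46 in the embryo and EB inputs. Calr, which encodes an ER chaperone, had peaks in all 6 libraries over the region, with 36 and 52 tags in embryo eCLIP and 27 and 26 in EB eCLIP, against 19 and 14 in the embryo and EB inputs. Only embryo eCLIP-2 and EB eCLIP-2 put its summit in the 3' UTR. Mark3, Tcf7l2, Ctnnd1 and Fat1, which the study examined for STRAP binding, led no 3' UTR region. In the embryo input the peaks with the most tags after Lars2 and Tmem38b were H2afx (32), Actb (27) and Ywhag (25).

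Of the 21655 protein-coding genes with a 3' UTR, 573 (2.65%) had a 3' UTR summit in at least 1 eCLIP library when every gene whose 3' UTR held it was counted, and among the 2306 genes with any eCLIP peak these were 24.8%. The second share is the closer background for abundant mRNAs. The gene lists were chosen with earlier results of these data known, so their shares are descriptions and not tests. Cytoplasmic mRNA-binding and translation factors had a 3' UTR peak in 17 of 46 genes, and in 17 of the 34 with any eCLIP peak (50%). Beside Pabpc1 and Ybx1 these were led by Eif4a1, the helicase of the cap-binding complex, with 8 and 16 tags in embryos and 0 and 13 in EBs, and by Ybx3 with 6 and 0 tags in embryos and 10 and 16 in EBs. The Eif4a1 region overlaps a snoRNA gene (Gm24029).

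Chromatin genes and acidic histone chaperones had a 3' UTR peak in 15 of 31 peaked genes (48.4%), and Rbbp4, a histone-binding subunit of several chromatin complexes, was found in 3 libraries with 0 and 5 tags in embryo eCLIP and 10 and 16 in EB eCLIP, against 21 and 15 tags in the embryo and EB inputs. Of the 15 genes, 12 were in an embryo library and 9 in an EB library. Cytoskeletal genes reached 18 of 40 (45%), with Cfl1, Tmsb10 and Tpm3 (tropomyosin) in 3 or more libraries. Splicing and nuclear RNA-binding proteins had 12 of 39 (30.8%), near the background. They included Hnrnpa0, Npm1 and Rbm25, a splicing regulator with 10 and 9 tags in EBs and 0 in both embryo libraries.

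Ribosomal protein genes stood at the other end, with 4 of 59 peaked genes (6.78%) and none in more than 1 library. Replication-dependent histone genes, whose mRNAs end in a stem-loop in place of a poly(A) tail, had 3 of 35 (8.57%), all in EB eCLIP-2 alone with 4 or 5 tags. Globin and erythroid genes had 0 of 7. Most of these genes thus carried their eCLIP peaks outside the 3' UTR. The 3' UTR lengths of these lists were not compared with those of other genes, and whether length bears on the low shares was not tested.

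**Figure D5:**
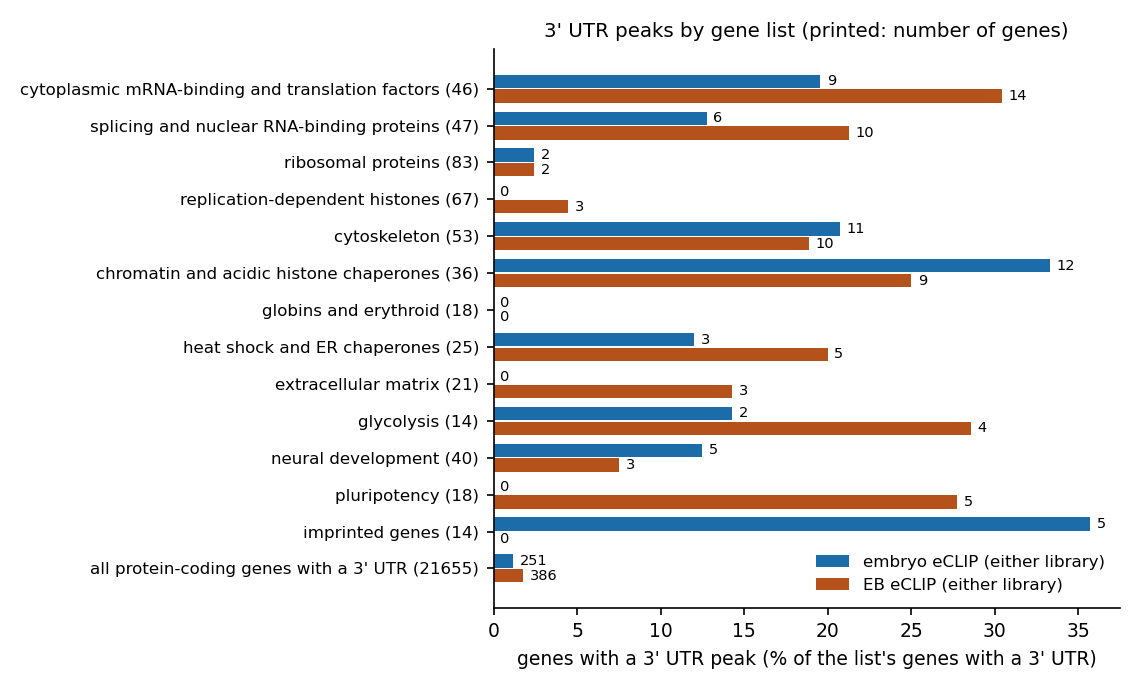
Share of the genes of each list (y axis, with the number of genes that have a 3' UTR) that had a 3' UTR peak in either embryo eCLIP library (blue) or either EB eCLIP library (orange), in % (x axis); the number of genes is printed. The listed imprinted genes show 5 genes in embryos and 0 in EBs, and the listed pluripotency genes 0 in embryos and 5 in EBs, beside 251 and 386 of 21655 genes. The lists were chosen with earlier results of these data known.

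Some of these lists, chosen with earlier results known, divided by tissue. Most genes did so as well. Of the 573 genes with a 3' UTR peak, 251 had it in an embryo library and 386 in an EB library, so few had it in both tissues. All 5 listed imprinted genes with a 3' UTR peak, of 9 with any eCLIP peak, had it in embryo libraries only. These were Igf2 and Nnat, the growth factor receptor adaptor Grb10 (12 and 27 tags, at 2 separate regions), Mest (14 and 14, the region shared with Copg2) and Peg10 (0 and 36). The EB input had 125 tags over Igf2 and 44 over Nnat. The split holds for the 14 imprinted genes listed only. Gnas, an imprinted gene left off the list, had a 3' UTR peak in both embryo libraries and in EB eCLIP-1 (9 tags). All 5 pluripotency genes, of 11 with any eCLIP peak, had it in EB libraries only, with Esrrb (5 tags) and Fgf4 (10 tags) in EB eCLIP-2 beside Nanog, Sox2 and Tdgf1 in both. The 3 extracellular matrix genes were also in EBs, with 14 and 16 tags for Fn1 (fibronectin) in the 3' UTR and 19 and 13 for Sparc. Embryo eCLIP had peaks of 6 and 5 tags over the Fn1 region with summits elsewhere.

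Neural development genes had 6 of 20 (30%), namely Mdk, Nedd4, Nnat, Sox2, Meis1 and Ptn. ER and heat shock chaperones had 5 of 19 (26.3%), among them Hspa5, the Hsp70 of the ER, and Canx, a lectin chaperone. In their 3' UTR peaks Hspa5 had 33 and 0 tags in embryos and 18 and 0 in EBs, and Canx 0 and 25 in embryos and 0 and 19 in EBs. Glycolysis genes had 4 of 6, of which Pkm (pyruvate kinase) had 0 and 5 tags in embryos and 6 and 7 in EBs. The differences between tissues were not tested.

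Some genes with a 3' UTR peak also had a coding exon peak in the same library. These were 16 of 126 genes (12.7%) in embryo eCLIP-1, 23 of 135 (17.0%) in embryo eCLIP-2, 9 of 151 (5.96%) in EB eCLIP-1 and 65 of 288 (22.6%) in EB eCLIP-2. Over all 21655 genes with a 3' UTR, 2.07%, 1.75%, 1.501% and 2.67% had a coding exon peak in these libraries. These were 448, 379, 325 and 578 genes, whereas only 2306 of the 21655 had a peak of any class in any eCLIP library. The share over all genes is therefore a low background and does not show that both kinds of peak tend to share genes. The difference between these shares was not tested.

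The sequence around the summits was searched in a 200-nt window on the gene's strand, which was the only strand read. The motifs were AATAAA (the polyadenylation signal), then ATTTA (the core of AU-rich elements), then TGTANATA (the site of Pumilio proteins) and 7 short repeats. The repeats were TTTTTT and then AAAAAA and then GAAGAA and then GCAGCA and then CTCCTC and then CACACA and then TGTGTG, and a window can hold several of them, which can overlap. None of the 40 tests of eCLIP against the tissue's input passed after adjustment over the motifs of a library (smallest adjusted p of Fisher's exact test 0.374), and 1 was under 0.05 before it. With 32 and 40 input windows, these tests detect only large differences.

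As a description, CTCCTC was in 19.8% and 17.6% of embryo eCLIP windows and in 9.27% and 10.9% of EB eCLIP windows, against 15.6% and 7.5% of windows in the embryo and EB inputs. It was in 7.91% of all 144431 windows of this length that tile the 3' UTRs of the annotation. Those windows held spliced 3' UTR only, whereas a summit window could run into coding or intron sequence, so these shares are not matched. GAAGAA was in 16.7% and 13.97% of embryo and 8.61% and 12.5% of EB eCLIP windows, against 6.25% and 5% in the embryo and EB inputs and 9.22% of all windows. AATAAA was in 7.94% and 8.82% of embryo and 9.27% and 19.1% of EB eCLIP windows, against 15.6% and 17.5% in the embryo and EB inputs and 13.02% of all windows. EB eCLIP-2, the library with the shorter assumed fragment, stands apart there. The AU-rich core was in 18.3 to 24.3% of eCLIP windows and 27.6% of all windows.

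Windows around 3' UTR summits had a higher mean G+C than windows tiled over 3' UTRs, but the sets were cut differently. Summit windows were genomic sequence that could run into coding exons or introns, whereas tiled windows held spliced 3' UTR only. The mean was 49.7% and 49.5% in embryo eCLIP and 46.9% and 45.7% in EB eCLIP, against 46.7% in embryo input, 47.8% in EB input, 44.5% over the 3' UTRs of the same genes and 43.3% over all 3' UTR windows. Between eCLIP and input the means overlapped (exact permutation p = 0.6). Repeats separated eCLIP from input more clearly. Soft-masked sequence made up more than 50% of the window at 6 of 126 (4.76%) and 9 of 136 (6.62%) summits of embryo eCLIP and at 16 of 151 (10.6%) and 14 of 304 (4.61%) of EB eCLIP, against 11 of 32 (34.4%) in the input of embryos and 7 of 40 (17.5%) in that of EBs. In all 3' UTR windows the share was 9.19%. Fisher's exact test against the tissue's input gave adjusted p = 0.000101, 0.000241, 0.274 and 0.00769, and all 4 eCLIP libraries were below both inputs (exact permutation p = 0.0667, the smallest possible). The authors removed reads that mapped to repeat families before peak calling, in eCLIP and input libraries alike.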

How the data were processed

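The data were peak lists of 6 libraries, 1 list per library, with no pooling of replicates. Per the methods, the authors trimmed reads with cutadapt, removed reads mapping to repeats, mapped what remained to mm10 (GRCm38) by STAR 2.5.2b, removed duplicates and called peaks with MACS 1.4.2. The methods name a control option, a looser p-value cutoff and a fold minimum against input, but per the file headers each deposited list was made at a p-value cutoff of 1e-05 with no control file. The lists were therefore treated as called without input. The deposited tags are counts of fragments under a peak, 1 per position. The deposited score is the negative log10 of the p-value times 10, and the deposited fold enrichment is a ratio to the library's own background.

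Summits (start + summit - 1) were placed in Gencode M21 basic transcripts. All 10666 peaks on assembled chromosomes ended inside the GRCm38 sequence, 82 peaks lay elsewhere, and 99.98% of the 44664 annotated 3' UTRs opened with a stop codon, which counts here as part of the 3' UTR. Tests were Fisher's exact test with Benjamini-Hochberg adjustment over the 4 eCLIP libraries (over 10 motifs within a library for motifs), and exact two-sided permutation or sign-flip tests over libraries (Python 3.11.15, SciPy 1.17.1, pandas 2.3.3, pysam 0.24.0). The threshold was an adjusted p of 0.05. Intervals cover counting error only. Per the methods, the 2 replicates of a tissue came from independent embryos or EBs.

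Named regions were the 12 held by most eCLIP libraries without an input peak (ties by tags per 100000 library tags), up to 6 per tissue held by both its replicates alone, 5 on input peaks, genes with several regions, list members, genes the study examined and the leading input peaks. One of the 12 is not reported here. Members and the 13 gene lists were chosen with earlier results of these data known. Classification and tests were checked on simulated data.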

Additional observations from a re-analysis of the deposited data

How the results depend on the processing

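No paired analysis was possible because the replicate numbers of embryos and EBs do not link samples and no test between tissues was made. No call changed at a fold above 5, without summits also in coding exons, or with at least 50% of the member peak overlapped. The fold and coding exon settings moved no mean share of a tissue beyond the spread between replicates. They gave 107 and 101 recurrent regions, against 107 in the main setting. Peaks with a score of at least 100 had a 3' UTR share of 4.64% in embryo eCLIP and 4.89% in EB eCLIP, 3.30 points above input, formed 22 recurrent regions, and differed from other peaks by -6.70 percentage points in replicate overlap (largest adjusted exact p = 1) and by -24.3 points in input overlap (0.0547), so those calls were lost in at least 1 library. The eCLIP minus input position then turned to 0.0940 (exact p = 0.333, not called in either setting). With summits moved 62 nt toward the 3' end where the assumed fragment was 200 nt, the embryo share was 12.5%, and 1 motif test passed (CTCCTC in EB eCLIP-1, 7.57% of windows against 23.8% in the EB input, adjusted exact p = 0.0452). With peaks of at least 10 tags, chosen after seeing the data, the replicate overlap difference was -15.4 points (largest adjusted exact p = 0.261) and the input overlap difference -34.5 points.

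Leaving out 1 eCLIP library at a time gave a mean share between 8.70% and 10.4% in embryos and between 12.02% and 15.5% in EBs, an eCLIP minus input share between 8.79 and 11.1 points, an input overlap difference between -14.4 and -12.7 points, a position difference between -0.12 and -0.08, and a log2 tag difference between 0 and 0.09. Recurrent regions numbered between 52 and 84, with 62 without EB eCLIP-1 and 52 without EB eCLIP-2. Depth limits all of this: a peak of 3 to 5 tags can be missed in the other replicate by sampling alone, and absence of a peak is not absence of binding.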
